A study of Mus musculus with 6 samples.

Results

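Interferon response genes were followed in hepatocytes of mice with and without Bim. Interferons are secreted cytokines that warn cells of infection. Type I interferons bind a receptor made of the chains IFNAR1 and IFNAR2, whose kinases JAK1 and TYK2 activate STAT2, which acts with IRF9 in the complex ISGF3, and this binds the interferon-stimulated response element (ISRE) in target promoters. The targets sense viral nucleic acid, block translation and viral growth, or damp the signal. The members were a named list of 41 genes (receptor chains, transcription factors, sensors and induced targets), found by gene identifier among the 48,353 genes of the files. All 41 were matched to a symbol.

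The 6 libraries of polyadenylated RNA came from hepatocytes freed by collagenase perfusion of the liver, 3 labelled Bim knock-out and 3 labelled wild-type, all C57BL/6. The knock-out mice carried Bim(lox/lox) and Alb-Cre, in which the albumin promoter drives the Cre recombinase, so that Bim (symbol Bcl2l11), which encodes a protein that promotes apoptosis, is deleted in hepatocytes. The labels do not say whether the wild-type mice carried lox sites or Cre, nor the diet (chow or high-fat) or age of each sample. They speak of male mice and leave it unsaid whether each sample is an animal of its own, so the p-values below refer to the spread of these 6 samples, part of which may be technical. The libraries held 25,335,211 to 31,130,519 estimated reads, and 10,486 to 11,255 genes per library were above 0. The estimated reads of Bcl2l11, summed over the whole gene, were 0 in every knock-out sample, and 0, 680 and 478 in the wild-type samples. The library labelled wild-type replicate 1 therefore did not pass this check of its label, though a 0 may also stand for a failed estimate, and results that rest on it are also given without it. Of 12 hepatocyte markers 10 were read in all 6 libraries, and Pck1 was listed at 0 in all of them.

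Not every exact 0 in these files need be an absence of reads. Among well-read loci (a median of over 100 reads, and at least 3 libraries above 0), exact zeros made up 18% of the values where 2 or more transcripts are annotated and 0.0156% where 1 is. Of the 41 members 13 were above 0 in all 6 libraries, 27 were at 0 in some and 1 (Oas2) in all. The 13 are therefore described first, and a member with zeros is given by its reads in each library.

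Knock-out replicate 1 and wild-type replicate 2, 1 library of each genotype, stood apart from the other 4 in the interferon response genes read everywhere. In depth-scaled reads (reads relative to the library's total) these 2 were the highest for 13 of the 13 members read everywhere. Over all 5538 tested genes above 0 in all 6 libraries, these were the 2 highest libraries for 5.16%. The ratio of the highest to the lowest library had a median of 10.7 over the 13 members (2.45 for Stat2 to 107.9 for Ifit3) and of 1.46 over all 5538 genes. Between the second and the third highest library the members dropped by a median factor of 3.17 (1.47 to 27.7), where the median over all genes was 1.04. The mean level of the 13 members on the log2(RPKM + 1) scale was 7.72, 4.69 and 5.56 across the knock-out samples and 5.38, 7.7 and 5.84 across the wild-type samples (RPKM being reads per kilobase of transcript, scaled to library depth). The SD within a genotype, 1.56 for knock-out and 1.23 for wild-type, exceeded the difference between the genotype means of 5.99 and 6.31.

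**Figure D1:**
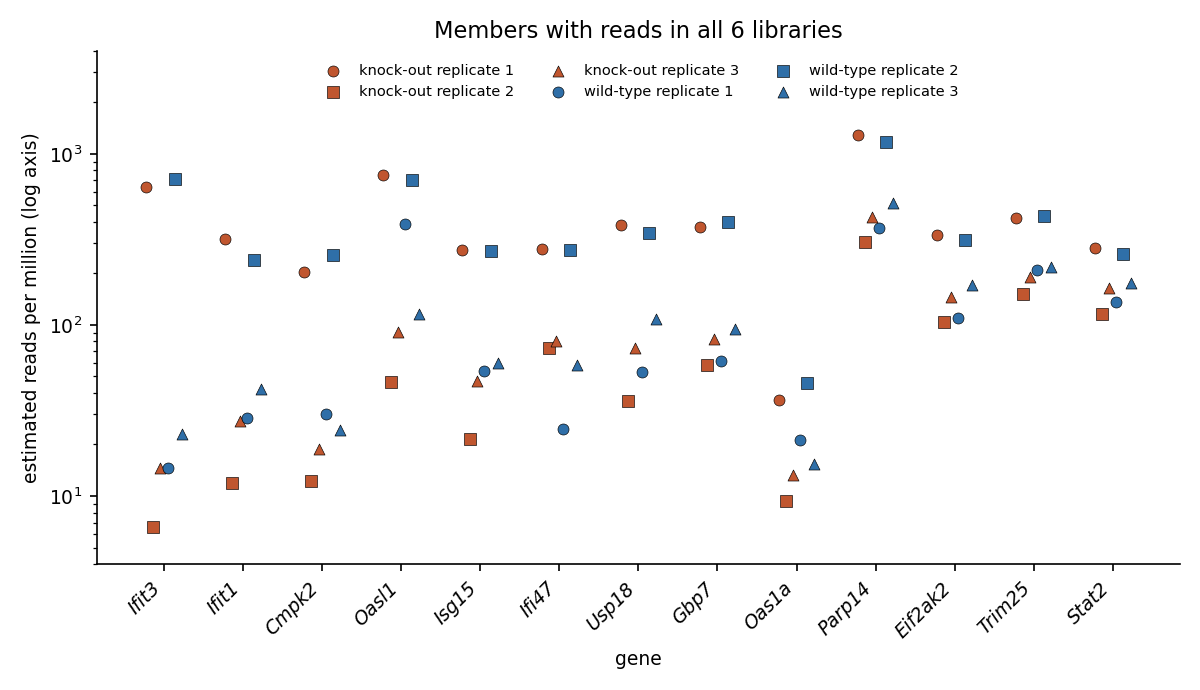
Depth-scaled estimated reads (log axis) of the 13 members with reads in all 6 libraries, ordered by the ratio of the highest to the lowest library. Colour marks the genotype and shape the replicate; knock-out replicate 1 and wild-type replicate 2 lie above the other 4 libraries for every gene shown.

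**Figure D2:**
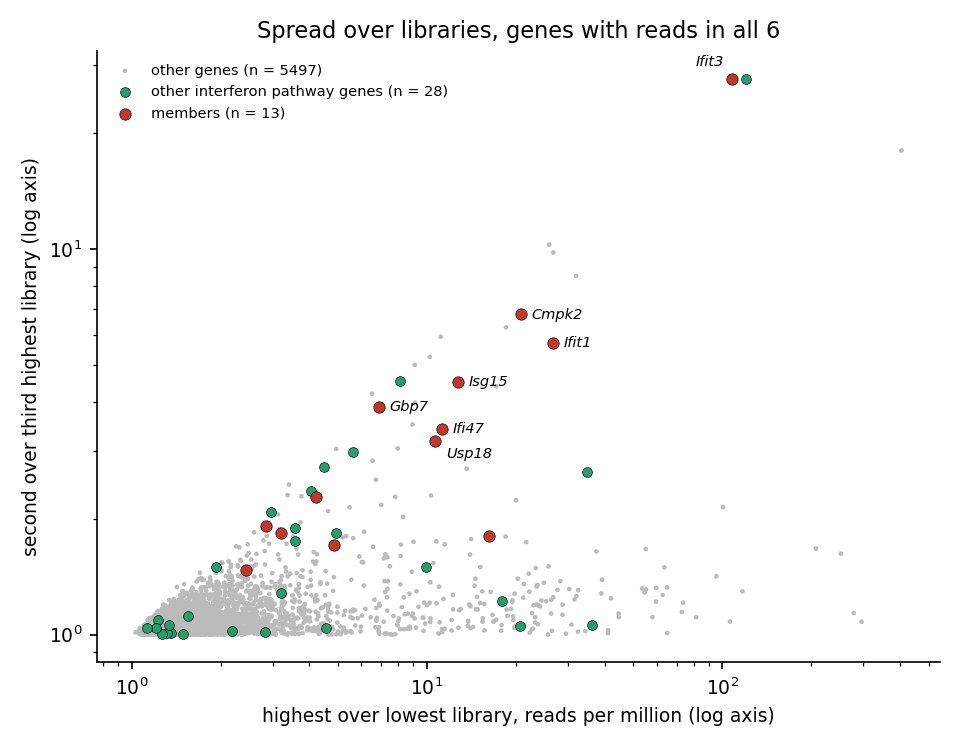
Ratio of the highest to the lowest library against the ratio of the second to the third highest library, in depth-scaled reads (both axes log), for the 5538 tested genes above 0 in all 6 libraries. Members are red, other interferon pathway genes green and all other genes grey; Ifit3 lies at 107.9 and 27.7, and the median of all genes is at 1.46 and 1.04.

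Promoter sequences are shown because the members were listed as interferon response genes, so a core can be looked for whatever the libraries show. Whether the core goes with the order of the libraries was not tested. The letters of the ISRE core, GAAA, any 2 bases and GAAA on either strand, were searched in RefSeq promoter windows of 300 bases (250 before and 50 after the start, GRCm38.p6). Of the 31 members with a window, 16 (51.6%) held the core, and 3.99% of the 27,025 genes with a window did. The letters of a gamma-activated site (GAS), TTC, any 3 bases and GAA, which reads alike on both strands, were in 11 of the 31 (35.5%), and in 9.55% of all genes. Each motif was counted on its own, whether or not it overlapped the other, and a match is a run of letters, not a measured binding site. The 250 bases before the start are shown for the 4 members that hold the core, were read in all libraries and spanned the widest range (chosen after their values were seen), 5′ to 3′ on the gene's strand, with each core in capitals (a core on the other strand reads TTTC, any 2 bases and TTTC).
Ifit3 (chr19:34583279-34583528, plus strand): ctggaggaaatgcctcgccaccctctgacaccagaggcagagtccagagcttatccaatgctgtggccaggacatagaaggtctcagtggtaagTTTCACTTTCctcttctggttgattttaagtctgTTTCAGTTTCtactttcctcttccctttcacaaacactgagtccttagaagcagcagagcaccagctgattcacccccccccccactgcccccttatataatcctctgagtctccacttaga
Ifit1 (chr19:34640639-34640888, plus strand): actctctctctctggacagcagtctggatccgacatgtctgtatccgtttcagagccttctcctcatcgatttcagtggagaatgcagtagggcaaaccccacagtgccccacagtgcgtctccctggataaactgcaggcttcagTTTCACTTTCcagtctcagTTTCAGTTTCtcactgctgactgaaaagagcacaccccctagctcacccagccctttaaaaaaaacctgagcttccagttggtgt
Isg15 (chr4:156200819-156201068, minus strand): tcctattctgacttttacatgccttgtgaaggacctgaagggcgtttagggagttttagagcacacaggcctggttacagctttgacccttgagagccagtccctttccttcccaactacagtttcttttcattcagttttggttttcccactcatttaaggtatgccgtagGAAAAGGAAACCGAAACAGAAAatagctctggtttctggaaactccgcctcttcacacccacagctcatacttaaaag
Gbp7 (chr3:142530086-142530335, plus strand): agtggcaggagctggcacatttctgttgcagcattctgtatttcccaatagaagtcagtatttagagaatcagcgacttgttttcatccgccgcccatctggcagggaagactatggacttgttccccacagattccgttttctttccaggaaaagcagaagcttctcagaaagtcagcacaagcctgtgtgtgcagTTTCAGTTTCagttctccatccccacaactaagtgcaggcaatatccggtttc
Ifit3 and Ifit1 each held 2 separate cores on the opposite strand, Isg15 held 3 overlapping ones on its own strand, and Gbp7 held 1. The first base of the core lay 156 and 122 bases before the start in Ifit3, 104 and 85 in Ifit1, 78, 72 and 66 in Isg15 and 53 in Gbp7.

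The first core of the other 12 members is shown with 6 bases on each side, read on the strand that gives GAAA, any 2 bases and GAAA, to let the flanks be compared. In Ddx58, Eif2ak2 and Ifih1 it lay after the start.
Stat2: ggaaagGAAACTGAAAccaggg
Oas1a: tctcggGAAATGGAAActgaaa
Eif2ak2: cgccggGAAAACGAAAcagaag
Rsad2: ttttctGAAAATGAAAgttgga
Ifih1: agaatcGAAACAGAAAccgatc
Ddx58: ccatagGAAATCGAAActgcct
Gbp2: gacagtGAAAGTGAAActaaaa
Gbp3: gaaataGAAACTGAAActgtgt
Irgm1: tttcaaGAAATAGAAAccgaaa
Igtp: ggaactGAAACTGAAAgctgtt
Oas3: ggaggaGAAAACGAAAgtgaag
Bst2: ttccagGAAAATGAAActgaaa
Among the members read in all 6 libraries, Cmpk2, Oasl1, Ifi47 and Trim25 had a window without these letters. Usp18 and Parp14 had no window in the table.

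The IFIT proteins bind viral RNA and block its translation. Their genes lie side by side on chromosome 19 of GRCm38, Ifit2 from 34550694 to 34576419, Ifit3 from 34583531 to 34588731 and Ifit1 from 34640871 to 34650009, all on the plus strand. Ifit3 had 17,948, 182 and 368 reads in knock-out replicates 1 to 3, then 410, 22,106 and 646 in wild-type replicates 1 to 3. Its depth-scaled reads in knock-out replicate 1 were 96.6 times those of replicate 2, and in wild-type replicate 2 they were 48.9 times those of replicate 1. Ifit3b, a close copy of Ifit3 that is no member, had 9804, 88, 188, 172, 11,910 and 354 reads in the same order, so how reads were divided between Ifit3 and Ifit3b is uncertain. Ifit1 had 8978, 328 and 698 reads for knock-out as against 808, 7480 and 1186 for wild-type. Ifit2 had 5700, 230 and 0 reads across the knock-out samples and 1328, 7010 and 250 across the wild-type samples. All 3 genes thus had at least 5700 reads in 1 library of each genotype and at most 1328 in the rest, and the groups overlapped.

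The ISG15 system attaches the ubiquitin-like protein ISG15 to others, USP18 takes it off and also damps the receptor, and TRIM25 is a ubiquitin ligase that activates RIG-I. Isg15 (chromosome 4, 156199424 to 156200818, minus strand) had 7720, 592 and 1196 reads in knock-out replicates 1 to 3, then 1522, 8412 and 1684 in wild-type replicates 1 to 3. Usp18 had 10,806, 992 and 1858 reads for knock-out as against 1492, 10,756 and 3062 for wild-type. Both were high in the same 2 libraries and low in the other 4. Trim25 had 11,824, 4218 and 4854 reads across the knock-out samples and 5924, 13,502 and 6158 across the wild-type samples, a range of 2.85-fold in depth-scaled reads against 12.8-fold for Isg15. In RPKM the order of Trim25 differed, with knock-out replicate 3 highest at 176. There 100% of its reads were assigned to a transcript of 1433 bases, and in knock-out replicates 1 and 2 100% went to one of 5590 bases.

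Of the transcription factors, STAT2 and IRF9 are parts of ISGF3, IRF7 drives interferon genes and IRF1 serves the response to interferon gamma. Stat2 was the one read everywhere, with 7960, 3188 and 4150 reads in knock-out replicates 1 to 3, then 3838, 8044 and 4934 in wild-type replicates 1 to 3. The 2 highest libraries were again knock-out replicate 1 and wild-type replicate 2, but the range was the smallest of the 13. Irf1 had 3224, 0 and 1408 reads for knock-out as against 0, 2835 and 0 for wild-type. Irf7 had 9818, 4158 and 4618 across the knock-out samples and 2842, 0 and 0 across the wild-type samples, and was 1 of the 8 members listed at 0 in wild-type replicate 2. Irf9, at a locus it shares with Rnf31, had 616.8, 0 and 340.9 reads in knock-out replicates 1 to 3, then 1434, 0 and 1890 in wild-type replicates 1 to 3, and the division of reads between Irf9 and Rnf31 is uncertain.

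The listed reads of the receptor chains did not follow the order of the targets, though zeros of both chains limit this comparison. Ifnar1 (chromosome 16, 91485238 to 91507441, plus strand) had 6452, 5996 and 6040 reads in wild-type replicates 1 to 3 and an exact 0 in every knock-out sample. It was the 1 member whose zeros followed the genotype, a pattern found with 0 in knock-out for 56 of the 11,021 tested genes (0.508%). Ifnar1 has 5 annotated transcripts, and its reads were assigned to different ones in each wild-type library, ENSMUST00000023689 in replicate 1, ENSMUST00000117748 with ENSMUST00000145008 in replicate 2 and ENSMUST00000123196 in replicate 3. Ifnar2, at a locus of 12 transcripts shared with Il10rb, had 3535, 0 and 1475 reads for knock-out as against 180.4, 0 and 3663 for wild-type. With these zeros the levels of the receptor chains could not be ranked.

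The sensors recognise viral RNA (MDA5 from Ifih1, RIG-I from Ddx58, LGP2 from Dhx58) or nucleic acid in Z form (ZBP1), and none of the 4 was read everywhere (0). Ifih1 had 9092, 2662 and 0 reads across the knock-out samples and 5024, 10,720 and 3738 across the wild-type samples. Ddx58 had 7180, 0 and 2754 in knock-out replicates 1 to 3, then 2388, 7691 and 3720 in wild-type replicates 1 to 3, and Zbp1 5554, 822 and 0 for knock-out as against 0, 6416 and 1424 for wild-type. These 3 again had their highest reads in knock-out replicate 1 and wild-type replicate 2. Dhx58 was read in wild-type replicate 1 alone, with 1158 reads.

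The OAS enzymes make the messenger that activates RNase L, and OASL1, a relative without that activity, restrains the translation of IRF7. Oas1a, Oas2 and Oas3 form a cluster on the minus strand of chromosome 5 between 120730333 and 120907521. Oas1a had 1022, 260 and 336 reads across the knock-out samples and 598, 1420 and 432 across the wild-type samples. Oas3 was read in wild-type replicate 2 alone (1880 reads), and Oas2 was at 0 in all 6 libraries. Oas1a was thus the 1 of the 3 neighbours that could be followed. Oasl1 had 21,272, 1286 and 2294 reads in knock-out replicates 1 to 3, then 10,972, 21,810 and 3246 in wild-type replicates 1 to 3. Here wild-type replicate 1 was the third highest library, with the ratio of the second to the third at 1.8. Oasl2 had 5682 reads in knock-out replicate 1, 1090 in replicate 2 and 0 in all the others.

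The interferon-inducible GTPases coat the vacuoles of intracellular microbes (GBP and IRG proteins) or block viral capsids (MX proteins). Gbp7, Gbp3 and Gbp2 lie in a row on chromosome 3 between 142530342 and 142638008 on the plus strand. Gbp7, at a locus shared with Gm43802, had 10,486, 1607 and 2107 reads for knock-out as against 1741, 12,398 and 2677 for wild-type. Gbp2 had 11,108, 2214 and 1882 across the knock-out samples and 2666, 13,149 and 0 across the wild-type samples, and Gbp3 9400, 0 and 1603 in knock-out replicates 1 to 3, then 0, 10,464 and 0 in wild-type replicates 1 to 3. The reads of these 3 neighbours in knock-out replicate 1 and wild-type replicate 2 lay between 9400 and 13,149 and elsewhere no higher than 2677. Ifi47, an IRG protein gene at a locus shared with Olfr56, had 7796, 2030 and 2028 reads for knock-out as against 693, 8524 and 1639 for wild-type. Irgm1 had 16,246, 4854 and 6614 reads across the knock-out samples and 0, 20,276 and 8892 across the wild-type samples. Gbp6 had 6038, 1547 and 0 in knock-out replicates 1 to 3, then 1238, 6609 and 0 in wild-type replicates 1 to 3. Gbp6 shares its locus with Gbp10 and Gm43302, and how reads were divided between these genes is uncertain. Mx2 was read in the 2 high libraries alone (1657 and 2018), Mx1 in wild-type replicate 2 alone (2218), and Igtp, which shares its locus with Irgm2, had 144.6 and 61.3 reads in the 2 high libraries and 0 elsewhere.

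Among the other antiviral effectors, Rsad2 encodes viperin, which makes a chain-terminating nucleotide, and Cmpk2, its neighbour on chromosome 12, a nucleotide kinase. Cmpk2 (26469204 to 26479835) had 5760, 338 and 476 reads for knock-out as against 852, 7938 and 682 for wild-type. Rsad2 (26442753 to 26456452) had 41,376, 1100 and 0 across the knock-out samples and 8000, 65,972 and 2964 across the wild-type samples, and no other member had more reads in 1 library. Both neighbours were high in the same 2 libraries. Eif2ak2, the kinase PKR that stops translation, had 9478, 2892 and 3682 reads in knock-out replicates 1 to 3, then 3092, 9804 and 4818 in wild-type replicates 1 to 3. Its RPKM were highest in wild-type replicate 3 (245.7) and knock-out replicate 3 (227.1), where short transcripts of 574 and 704 bases took 54% and 68.1% of its reads. Bst2, the tether that holds virus particles at the cell surface, had 10,006, 7968 and 8194 reads for knock-out as against 0, 11,724 and 9988 for wild-type, so it was abundant in all libraries where it was read. The exonuclease gene Isg20 was read in knock-out replicate 1 alone, with 1600 reads.

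Parp14, an ADP-ribosyltransferase, was the 1 of the other induced genes read everywhere, with 36,394, 8468 and 10,868 reads across the knock-out samples and 10,400, 36,506 and 14,480 across the wild-type samples. Ifi44 had 6110, 0 and 1228 in knock-out replicates 1 to 3, then 0, 6754 and 0 in wild-type replicates 1 to 3, and Xaf1 4523, 1050 and 0 for knock-out as against 0, 4324 and 0 for wild-type. These 3 repeated the order of the other targets. Ifi35 had 0, 2122 and 2626 reads across the knock-out samples and 2254, 6160 and 3174 across the wild-type samples, and Rtp4 4214, 0 and 1846 in knock-out replicates 1 to 3, then 1466, 0 and 0 in wild-type replicates 1 to 3. Ifi35 and Rtp4 were each at 0 in 1 of the 2 high libraries, and Rtp4 shares its locus with Gm45338. Ifi27 was read in wild-type replicates 2 (1526 reads) and 3 (2948) and nowhere else.

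**Figure D3:**
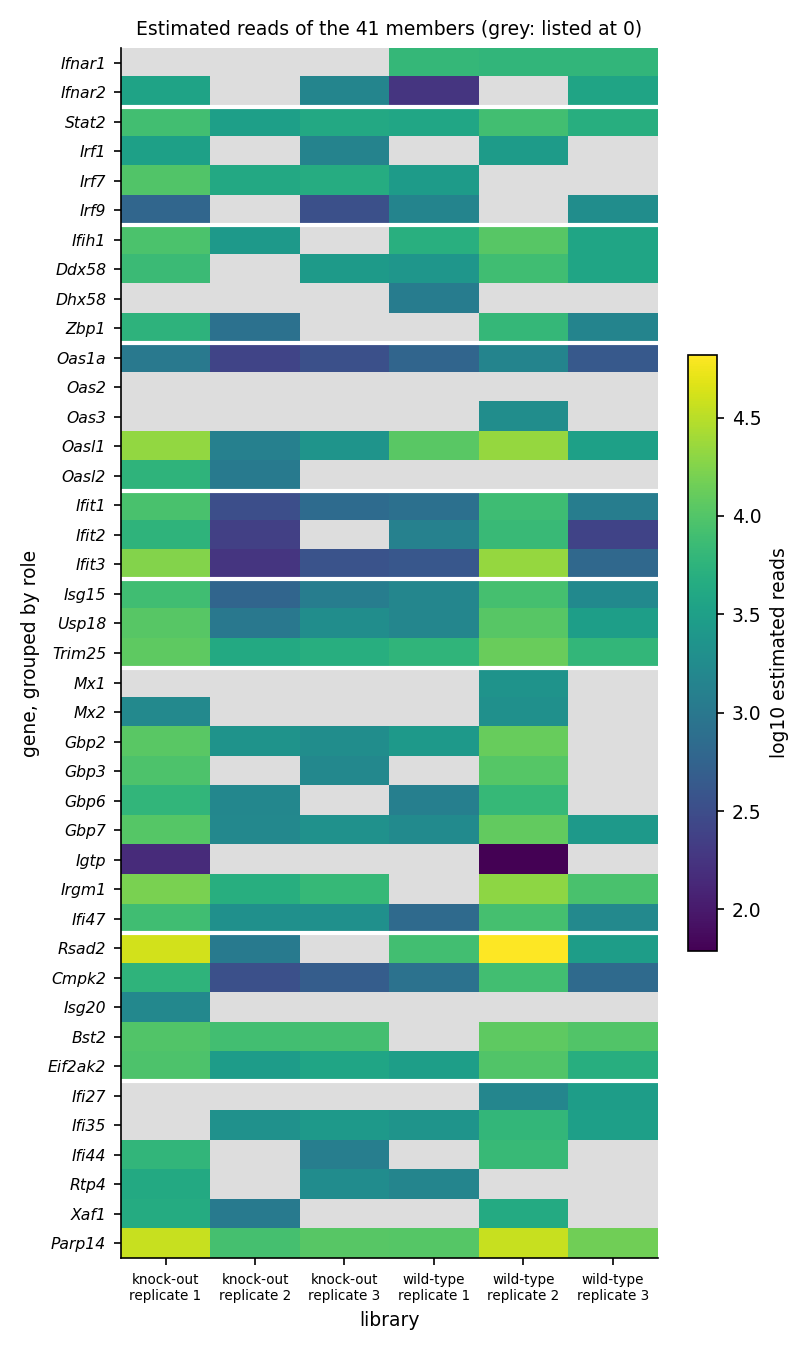
Estimated reads (colour, log10 scale) of the 41 members in each library, grouped by role, with values listed at 0 in grey. Zeros are least frequent in knock-out replicate 1 (7 of 41) and wild-type replicate 2 (8 of 41) and number 15 to 16 in each of the other 4 libraries.

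Over the 246 library values of the members 78 (31.7%) were exact zeros. The 5 members at loci with 1 transcript (Ifit1, Ifit3, Isg15, Oas1a and Cmpk2) had 0 zeros in 30 values. At loci with 2 or 3 transcripts 8 of 66 values were zeros (12.1%), and at loci with 4 or more 70 of 150 (46.7%). Under the criteria that gave 18% over all loci with 2 or more transcripts, the members' loci had 21.4%. For the 5 members at loci with 1 transcript, where RPKM does not depend on how reads were divided between transcripts of the gene, levels per length can be compared, though those of Ifit3 depend on the division of reads with Ifit3b. In knock-out replicate 1 and wild-type replicate 2 Ifit3 (508.4 and 578.5 RPKM) and Isg15 (504.7 and 508.1) lay above Ifit1 (167.1 and 128.6), Cmpk2 (89 and 113.3) and Oas1a (26.8 and 34.4). In the other 4 libraries Isg15 was the highest of these 5, at 39.5 to 108.5 RPKM, and Ifit3 lay at 5.26 to 18, overlapping the ranges of Ifit1 (6.23 to 21.7), Cmpk2 (5.33 to 12.7) and Oas1a (6.96 to 15.1).

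Between knock-out and wild-type hepatocytes, no difference in the 13 members read everywhere exceeded the spread between libraries. In the limma fit of all 11,021 tested genes, on log2(RPKM + 1) with Benjamini-Hochberg adjustment over all of them, 1 of the 39 tested members passed, Ifnar1, with a difference of -6.54 (SE 0.195, adjusted p = 0.000288). Over all genes 0.789% were called, 0.417% higher in wild-type and 0.372% higher in knock-out. Ifnar1 was also the 1 tested member with an unadjusted p below 0.05, as 1.89% of all genes had. The size of the Ifnar1 difference rests on zeros and on the pseudocount, and with the replicate number as a block it was not called (adjusted p = 0.0505 in limma). Without wild-type replicate 1, the library that did not pass the Bcl2l11 check, limma called 3 of 38 tested members. They were Ifnar1 (-6.65), Irf7 (7.65, adjusted p = 0.011) and Ifi27 (-7.33, adjusted p = 0.00494), each with every library of 1 genotype at 0. The calls over all genes also rose in that setting, to 198 of 10,693 from 87 of 11,021 with all 6 libraries. In the fit of the 5538 genes above 0 in all libraries limma called none (0% in either direction, 0 of the 13 members). An unadjusted p below 0.05 was found for 0 of the 13 members and for 2.35% of all genes. Groups did not overlap for 0 of the 13 members, against 2.98% of all genes with knock-out higher and 2.96% with wild-type higher.

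In that fit the differences of the 13 members ran from -1.12 (Oasl1) to 0.7 (Ifi47), and 12 of 13 were negative, with a median of -0.27 where that of all genes was 0. These genes rose and fell together over the libraries, so the shared sign does not count as separate evidence per gene. Their SEs had a median of 0.99, against 0.17 over all genes. Ifit3 measured 175 ± 289 RPKM for knock-out, as against 203 ± 326 RPKM for wild-type (SD, n = 3 each), and the 95% interval of its difference ran from -5.9 to 4.69. For Isg15, at 209 ± 257 and 238 ± 234 RPKM (SD, n = 3 each), the interval ran from -3.22 to 2.11. The interval of 11 of the 13 members reached past a 2-fold change both ways, so these libraries do not show that the genotypes were alike. The narrowest was that of Stat2, from -1.05 to 0.89 around a difference of -0.08. Without wild-type replicate 1 limma called 0 of the 13 as well. The difference of Ifi47 was then -0.08 and that of Trim25 0.21. Those of all the other members read everywhere were further below 0 than with all 6 libraries, from -0.31 (Stat2) to -1.64 (Ifit3). Usp18, for example, had -1.22 there and -0.23 with all 6 libraries.

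Without knock-out replicate 1 and wild-type replicate 2, a choice made after their values were seen, the SEs of the 13 members had a median of 0.43. Their differences had a median of -0.63, and 12 of 13 were negative, where the median of all genes was -0.03. The 13 genes come from the same libraries and rise and fall together, so their signs are not independent results. None of the 13 was called by limma (0, and 0% of all genes in that fit), with adjusted p of 0.876 and above. Cmpk2 alone had an unadjusted p below 0.05, as had 2.72% of all genes, with a difference of -0.75 (SE 0.22) and a limma adjusted p of 0.876. The differences of Ifit1 (-0.87), Ifit3 (-0.82) and Isg15 (-0.83) were of like size, and knock-out replicate 2 was the lowest library for 12 of the 13 members. Ifnar1 was still called by limma in the fit of all genes (-6.39, adjusted p = 0.0172), where 298 of 10,668 genes were called.

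**Figure D4:**
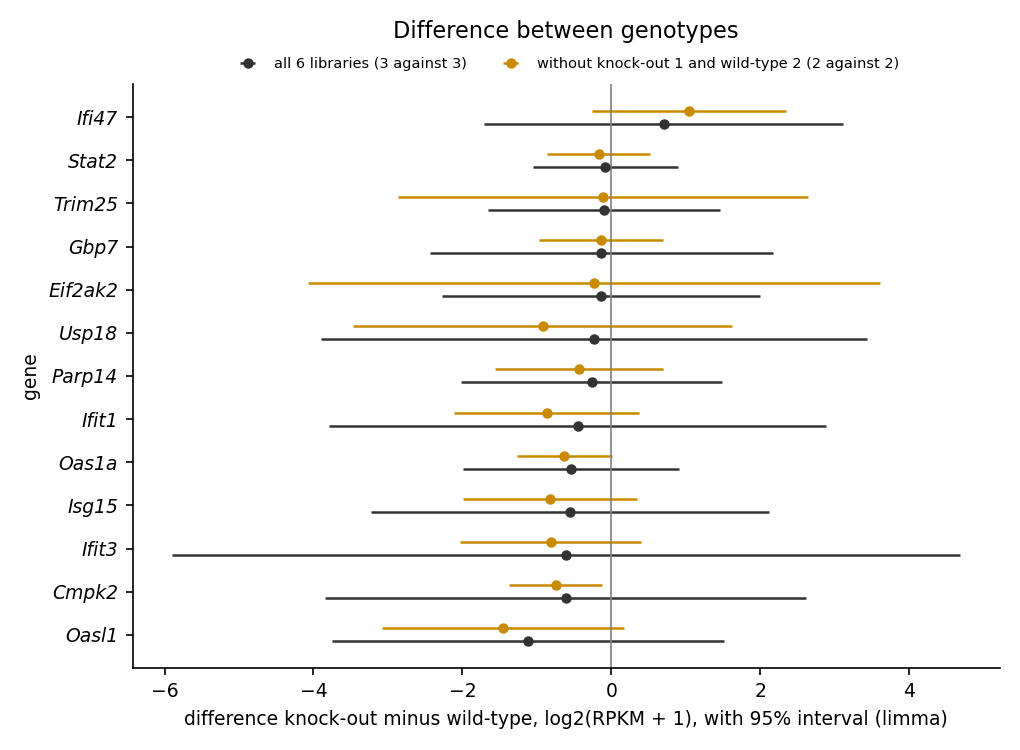
Difference between knock-out and wild-type on the log2(RPKM + 1) scale with its 95% interval from limma, for the 13 members read in all libraries, from all 6 libraries (black) and without knock-out replicate 1 and wild-type replicate 2 (orange). All black intervals include 0; the orange interval of Cmpk2 (-1.38 to -0.12) does not, before adjustment.

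Of 141 other genes of the interferon pathway, from ligands to targets, 96 were tested and none was called by limma (0 higher and 0 lower in knock-out), with an unadjusted p below 0.05 for 0. The ligands gave almost no reads: 19 of 21 interferon genes were at 0 in all libraries, among them Ifnb1, Ifng and every Ifna gene listed, and Ifnk had at most 8 reads. Signalling genes upstream of the targets varied less than the 13 members read everywhere. Tyk2, the receptor kinase, had 1146, 1338 and 1078 reads across the knock-out samples and 1082, 1254 and 1204 across the wild-type samples, and Tbk1, the kinase that activates IRF3 and IRF7, 1514, 1090 and 1148 in knock-out replicates 1 to 3, then 1318, 1546 and 1388 in wild-type replicates 1 to 3. The 6 signalling and sensor genes read everywhere at a mean of at least 1 RPKM (also Ptpn2, Ptpn11, Pias1 and Ticam1) spanned 1.21-fold to 1.55-fold in depth-scaled reads. Below that level Socs1, an inhibitor of the receptor kinases, spanned 4.93-fold with the same 2 libraries highest. Of the 33 pathway genes above 0 in all 6 libraries, 13 had knock-out replicate 1 and wild-type replicate 2 as the 2 highest. Of the DNA sensing genes, Tmem173 (STING) had 50 reads in wild-type replicate 1 and 12 to 20 elsewhere, and Tlr9 had 40 there and 2 to 8 elsewhere.

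Among the other type I targets with the highest RPKM, the order of the members did not hold for all. B2m, the light chain of MHC class I, had 29,124, 28,460 and 27,634 reads for knock-out as against 32,732, 32,084 and 31,874 for wild-type, a range of 1.13-fold in depth-scaled reads. Ly6e, a membrane protein that restricts viruses, had 29,774, 29,771 and 22,671 across the knock-out samples and 13,891, 33,523 and 25,448 across the wild-type samples. The lowest library for Ly6e was wild-type replicate 1, and it was also the lowest for Ifitm3, a block to virus entry, with 2228 reads there and 4616 to 6958 in the others. Herc6, an ISG15 ligase, had 9818, 1707 and 2392 reads in knock-out replicates 1 to 3, then 2107, 10,318 and 3139 in wild-type replicates 1 to 3, the order of the members. Irf5 followed it as well, with 5212, 2300 and 2248 for knock-out as against 1980, 6484 and 2336 for wild-type. Irf2bp1 (284 to 384 reads) and Irf2bp2 (168 to 514), cofactors of IRF2, had their highest reads in wild-type replicate 1, as had the large GTPase gene Gvin1 (1617 reads there, 46 to 891 elsewhere).

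Macrophage markers did not follow the 2 high libraries. The summed RPKM of 19 Kupffer cell and macrophage markers was 173.3, 172.9 and 224.2 across the knock-out samples and 4995, 244.5 and 206 across the wild-type samples. Of these, Adgre1, Clec4f, Vsig4, C1qc, Cd163 and Tyrobp, at loci of 2 or 3 transcripts, were read in wild-type replicate 1 and listed at 0 in the other 5 libraries. Others were read in all 6, such as Marco, with 84,562 reads in wild-type replicate 1 and 1272 to 2336 elsewhere, and Csf1r, with 7500 and 514 to 1010. Of the 19 markers 16 had their highest reads in wild-type replicate 1, and of the 41 members 2 had (Ifnar1 and Dhx58). In bulk RNA, more cells of a type and more RNA per cell cannot be told apart. The part of these cells in the values of wild-type replicate 1, such as its 10,972 reads of Oasl1, was not tested.

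Of 17 lymphocyte markers 14 were listed at 0 everywhere, and Ptprc, the leukocyte antigen CD45, had 10,202 reads in wild-type replicate 1 and 0 in the other 5 libraries. The list summed to 105.7 RPKM in wild-type replicate 1. In this and the following lists a 0 need not be an absence of reads or of the cells. Of the plasmacytoid dendritic cell markers, cells known for making type I interferon, Siglech, Spib and Runx2 were at 0 in all libraries, and the list without Bst2 summed to 1.16 to 5.88 RPKM. All 10 stellate cell markers were at 0, and of 9 neutrophil markers 8 were, while Csf3r had 890 reads in wild-type replicate 1 alone. Of 12 endothelial markers 6 were at 0 everywhere, and the summed RPKM was 9.21 to 83.4 in knock-out and 2.09 to 197.9 in wild-type. It was 45.6 in knock-out replicate 1 and 197.9 in wild-type replicate 2, nearly all of it from Stab1, which was read in 4 libraries. Of the biliary markers Sox9 and Epcam had their highest reads in the 2 high libraries, with 732 and 978 reads of Sox9 there and 482 to 708 in the others. The 6 biliary markers summed to 9.09 to 509.9 RPKM, mostly from Spp1, which was at 0 in knock-out replicate 1. The part of endothelial and biliary cells in the members' values was not tested. The 12 hepatocyte markers summed to 42,410, 47,020 and 32,250 RPKM for knock-out, then 26,070, 58,040 and 26,540 for wild-type. Wild-type replicate 2 was thus highest, and wild-type replicates 1 and 3 were lowest at close values. Most of each sum came from Alb, which was lower in wild-type replicate 3 (15,024 RPKM) than in wild-type replicate 1 (16,508).

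**Figure D5:**
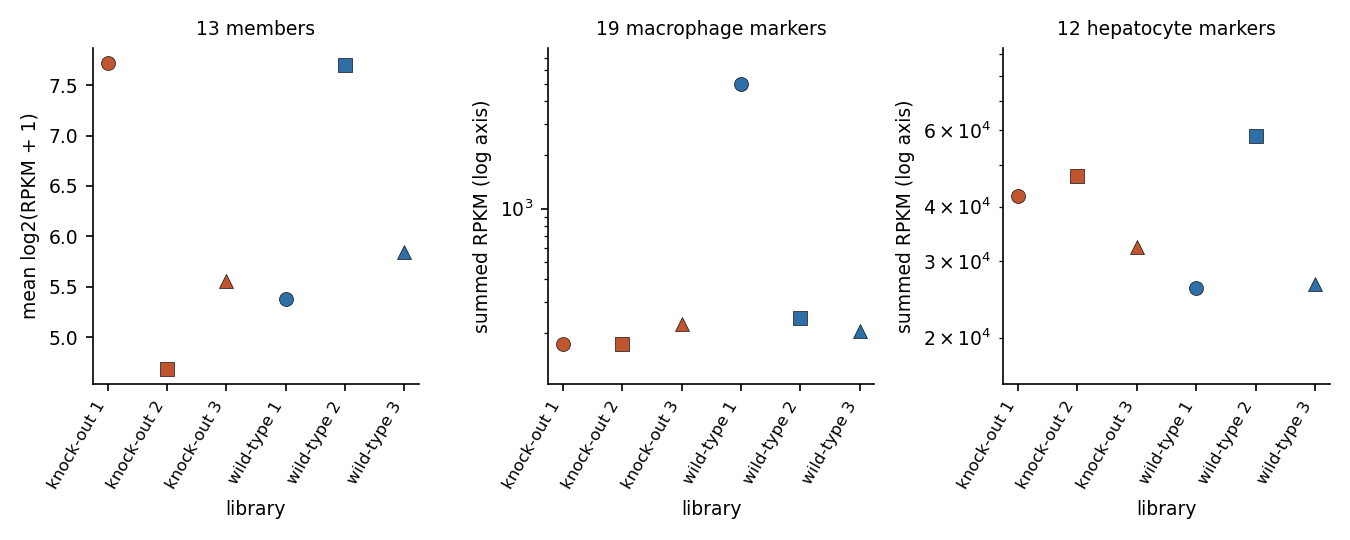
Mean log2(RPKM + 1) of the 13 members read everywhere (left), and summed RPKM of 19 macrophage markers (middle) and 12 hepatocyte markers (right, both on log axes) in each library. The members peak in knock-out replicate 1 (7.72) and wild-type replicate 2 (7.7), and the macrophage markers in wild-type replicate 1 (4995).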

How the data were processed

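Polyadenylated RNA of 6 hepatocyte samples was sequenced as single-end libraries, per the labels. Groups and replicate numbers came from the sample titles. The submitters' processing notes name TopHat2 (version 2) and GRCm38 (mm10). The tool that assigned reads to transcripts, and its use of strand, are not given in the sources used here. In the attribute text the authors deposited, each of 118,492 transcripts carries its estimated read count, length and RPKM, as the files themselves show. Reads and RPKM were summed over the transcripts of a gene, so RPKM also depends on which transcript took the reads. Symbols came from GENCODE M21 (47,993 of 48,353 genes matched). Depth-scaled reads are reads divided by the library's total of estimated reads.

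The test took genes averaging 1 RPKM or more, on log2(RPKM + 1) with limma 3.58.1 in R 4.3.3 (mean-variance trend, two-sided, no covariate, 6 libraries sharing 1 estimate of the spread), with calls at an adjusted p below 0.05. The scale understates changes of low genes. The fit was tested on simulated data in which all genes had the same spread and varied independently. The 13 members read everywhere spread more and varied together, so that test does not show how well their changes would be found. Named genes followed a rule: members of each role, and in each other list up to 4 genes read everywhere with the highest RPKM (1 further gene of the rule is not reported here). Names outside it, the macrophage and other cell markers among them, were chosen after values were seen. The members and lists were chosen with earlier results of these data known. Alternatives are given in the closing section. Figures were made with matplotlib 3.10.9.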

Additional observations from a re-analysis of the deposited data

How the results depend on the processing

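In limma, 87 genes were called over all genes tested. The count was 0 with the replicate block, 0 with genes above 0 in all 6 libraries, 171 to 198 with 1 library left out and 298 without knock-out replicate 1 and wild-type replicate 2. The number of members called was 1. It was 0 with the replicate block, 0 with the transcript of highest RPKM, 0 with genes above 0 in all libraries and 1 to 3 with 1 library left out. The 3 were found without wild-type replicate 1, where Irf7 (adjusted p = 0.011, higher in knock-out) and Ifi27 (0.00494, lower) joined Ifnar1, all through zeros. Ifnar1 itself had -6.65 to -6.39 with 1 library left out, -2.15 with its highest transcript (adjusted p = 0.849) and -6.54 with the replicate block (0.0505). Without 1 library 0 to 2 of the other pathway genes were called, and 4 without knock-out replicate 1 and wild-type replicate 2 (Lgals9, Pnpt1, Ifitm2 and Nmi, the last higher in knock-out), where the main count was 0. Lgals9 and Pnpt1 were called without knock-out replicate 1, Nmi and Ifitm2 without wild-type replicate 2 and Ifi204 without wild-type replicate 3.

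With 1 library left out, the differences of uncalled members ranged from -0.43 to 0.2 (Stat2), -1.08 to -0.09 (Oas1a), -2.15 to -0.39 (Oasl1), -1.8 to 0.48 (Ifit1), -2.57 to 1.14 (Ifit3), -1.6 to 0.22 (Isg15), -1.72 to 0.66 (Usp18), -0.59 to 0.5 (Trim25), -0.93 to 0.66 (Gbp7), -0.08 to 1.67 (Ifi47), -1.81 to 0.45 (Cmpk2), -0.76 to 0.59 (Eif2ak2) and -0.92 to 0.22 (Parp14). With its highest transcript Parp14 had 0.12. None of these 13 was called in any setting (0). The 4 settings for the level of the 13 members moved no library by more than the SD of its group. Depth limits Ifnk (at most 8 reads). Same-numbered libraries did not deviate together (r = -0.16, -0.05 and -0.01), so no pairing by replicate number was seen. Deviations from the mean of 3 libraries per group are tied to each other, so these values cannot exclude a pairing. Knock-out replicate 1 correlated best with wild-type replicate 2 (r = 0.31 across genes, which are not independent replicates).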

Other observations

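The order of the members was also looked for in all genes, a search made after the values were seen. Of the 5538 tested genes above 0 in all 6 libraries, 28 (0.506%) had knock-out replicate 1 and wild-type replicate 2 as the 2 highest libraries with the second at least 2 times the third in depth-scaled reads. They were 8 members, 6 genes of the other pathway lists (Ifit3b, Tor3a, Herc6, Trafd1, Daxx and Irf5) and 14 genes on neither list. Among the 14, Znfx1, a gene of a helicase family, had 13,902, 3996 and 4180 reads in knock-out replicates 1 to 3, then 4500, 13,664 and 5038 in wild-type replicates 1 to 3. Trim12a, of a TRIM family cluster, had 3648, 772 and 1345 for knock-out as against 1063, 3950 and 1708 for wild-type. Crybg1 had 5888, 2128 and 2226 across the knock-out samples and 1746, 6292 and 2444 across the wild-type samples, and Asap3 770, 272 and 274 in knock-out replicates 1 to 3, then 130, 962 and 290 in wild-type replicates 1 to 3. Gm12250 (726 and 772 reads in the 2 libraries, 28 to 68 elsewhere) and BC023105 (80 and 118, and 4 to 8 elsewhere) had, among these 28, the largest ratios of the second to the third library after Ifit3 and Ifit3b, at 10.3 and 9.79. Being on neither list does not place a gene outside the interferon response. For comparison, the pair knock-out replicate 3 with wild-type replicate 1 was highest for more genes (1144, or 20.7%), of which 8 had the second at least 2 times the third.

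Several pathway genes that are no members were read most in wild-type replicate 1, the library with the highest macrophage markers (summed RPKM of 4995, and 172.9 to 244.5 in the others). Slfn2 had 3514 reads there and 166 to 458 in the others. Ifi205 (3772), Socs3 (2644) and Mndal (368) were read there and listed at 0 in the other 5 libraries. Cd274, which encodes PD-L1, had 1842 reads in wild-type replicate 1, 1684 in knock-out replicate 1 and 1238 in wild-type replicate 2, and 182 to 280 in the others. The part of macrophages in these values was not tested.

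Among the chemokine targets, Cxcl9 had 1522, 2146 and 560 reads over the knock-out libraries, with 1516, 1984 and 0 over the wild-type ones, and so did not share the order of the members. The 14,950 reads of Cxcl10 were all in wild-type replicate 2. Cxcl11 had 3610 reads in knock-out replicate 1 and 3110 in wild-type replicate 2 and was at 0 elsewhere. Iigp1, an IRG protein gene, had 15,518 and 21,122 reads in these 2 libraries and 0 in the others. These genes lie at loci with 2 or more transcripts.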
